A study of Mus musculus with 6 samples.

Results

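The mouse autosomes were divided into 10 Mb bins, and the change in gene expression between the cell types was followed bin by bin along every chromosome other than 2. The genes were binned by the start of their deposited locus on GRCm38.p6, with 1 gene per distinct locus (the one of highest mean FPKM, which is fragments scaled to transcript length and library size), and a gene needed 1 FPKM or more on average. A bin was kept with 5 or more genes. Its value was the median over its genes of the log2 ratio of the Tyr-H mean to the Tyr-L mean, with 0.1 FPKM added to both, less the median of all 9548 genes, which was -0.13. Of 255 autosomal bins with at least 1 gene, 252 were kept, and 233 of them, with 8422 genes, lay on chromosomes other than 2. A value of 0 therefore means that the genes of a bin moved like the transcriptome as a whole. The values come from the same contrast that defines the bins' interest, so they are given as a description and no p-value is attached to any bin.

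The cells were 2 kinds of B16 subclone, Tyr-H and Tyr-L, B16 being a pigmented melanoma line of C57BL/6 mice, with 3 libraries of each. Tyr-H subclones had high and Tyr-L subclones low tyrosinase activity, tyrosinase being the enzyme that starts melanin synthesis from tyrosine, and both were grown in low-glucose DMEM with serum and antibiotics, with no other treatment. The study's methods describe collecting monoclones, so each kind may be 1 clone, and clone and tyrosinase activity cannot be told apart. The labels do not say whether the 3 libraries came from separate cultures, and spreads between libraries may be technical. All 8 melanocyte markers (among them Tyr, Pmel and Sox10) were expressed, with summed levels of 8417 to 8737 FPKM in Tyr-L and 6570 to 7165 FPKM in Tyr-H libraries. Of 6 immune cell markers 5 were not listed in any library, and the summed levels of fibroblast, endothelial and keratinocyte markers were at most 0.997, 0.054 and 0.035 FPKM. The FPKM of a library summed to between 446757 and 494468.

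Genes that lie side by side often share expression, since they can share enhancers and chromatin domains, and since families born by tandem duplication stay in clusters. In tumor lines a second layer is added: gain or loss of a chromosome segment changes the dose of all its genes at once, and the RNA of many of them follows the dose. A median over a 10 Mb bin is little moved by 1 regulated gene and records what most of its genes do.

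4 promoters are shown because they belong to genes of the highest and lowest bins described below. Cxcl1 and Cxcl2, chemokines that attract neutrophils, lie side by side in one of the highest bins. Their windows, from 250 bases before to 50 bases after the start site in RefSeq's GRCm38.p6 table, are chr5:90890995-90891294 and chr5:90903649-90903948, both on the plus strand. The capitals mark GGGAATTTCC, letters of the type bound by NF-kappaB, the only word of 10 bases with GGG at its start and CC at its end that both windows share on the strand shown, a form chosen after these windows had been read.
Cxcl1: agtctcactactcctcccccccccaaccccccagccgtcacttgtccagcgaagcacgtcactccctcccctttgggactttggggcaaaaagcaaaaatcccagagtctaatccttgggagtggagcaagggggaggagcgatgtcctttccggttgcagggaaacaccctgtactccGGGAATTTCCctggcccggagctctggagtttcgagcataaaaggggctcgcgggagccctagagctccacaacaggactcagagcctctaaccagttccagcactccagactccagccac
Cxcl2: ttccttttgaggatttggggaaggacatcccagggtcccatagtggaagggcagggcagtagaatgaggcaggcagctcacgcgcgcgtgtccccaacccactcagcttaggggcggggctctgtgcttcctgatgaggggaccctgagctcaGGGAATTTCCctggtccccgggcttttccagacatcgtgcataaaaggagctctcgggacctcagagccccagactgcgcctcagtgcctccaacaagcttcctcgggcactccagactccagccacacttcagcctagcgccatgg
The letters ended 61 bases before the start site in Cxcl1 and 87 bases before it in Cxcl2. Of 6368 genes of the bins with a promoter in the table, 9 (0.141%) held them on either strand. Cxcl1 and Cxcl2 are 2 of these 9 by construction, since the letters were taken from their windows. The other 7 were Nfkbia, Tufm, Asb8, Trio, Map3k7, Zfp84 and Cep112, on chromosomes 12, 7, 15, 15, 4, 7 and 11, with log2 ratios less the all-gene median from -0.52 in Cep112 to 1.20 in Nfkbia. A match is a description of letters and was not tested as a binding site.

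The other pair comes from stretches of chromosomes 3 and 14 described below. Arhgap29, which encodes a GTPase-activating protein for RhoA, has its window at chr3:121952979-121953278 on the plus strand. Pdhb, which encodes a subunit of pyruvate dehydrogenase, has its window at chr14:8172943-8173242 on the minus strand. The capitals mark CG dinucleotides.
Arhgap29: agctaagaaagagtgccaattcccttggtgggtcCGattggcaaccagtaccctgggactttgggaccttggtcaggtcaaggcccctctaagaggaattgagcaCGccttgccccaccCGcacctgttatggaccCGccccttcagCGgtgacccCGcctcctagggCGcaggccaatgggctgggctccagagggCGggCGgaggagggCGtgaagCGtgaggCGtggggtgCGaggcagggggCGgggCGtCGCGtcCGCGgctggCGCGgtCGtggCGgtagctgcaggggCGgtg
Pdhb: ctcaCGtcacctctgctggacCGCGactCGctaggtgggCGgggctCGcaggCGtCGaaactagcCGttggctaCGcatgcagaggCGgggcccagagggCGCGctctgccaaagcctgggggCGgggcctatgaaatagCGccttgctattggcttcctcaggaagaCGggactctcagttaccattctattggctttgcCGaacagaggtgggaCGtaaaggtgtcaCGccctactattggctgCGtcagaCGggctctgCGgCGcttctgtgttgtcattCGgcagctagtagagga
Both windows held 24 CG dinucleotides, against a median of 22 and quartiles of 15 and 30 over the 6368 promoters. The chemokine windows held 10 and 11.

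The 233 bins had a median value of 0.04 and a standard deviation of 0.14, and ran from -0.43 to 0.46. The quartiles were -0.07 and 0.09, and 143 bins (61.4%) lay within 0.1 of 0. Values were above 0 in 143 bins and below 0 in 90. 14 bins reached 0.2, and 19 fell to -0.2 or lower. Past 0.3 there were 4 bins above and 5 below, and the 5 below were all on chromosome 3.

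**Figure D1:**
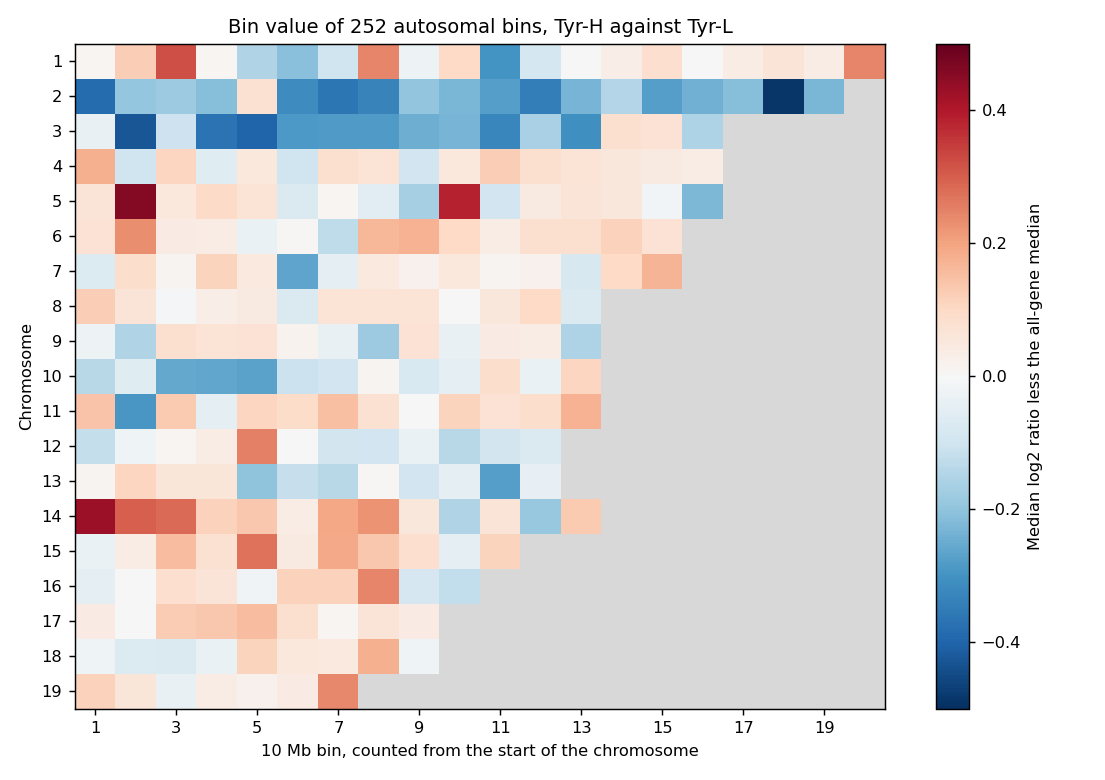
Bin values of the 252 kept autosomal bins, with a row for each chromosome and a column for each 10 Mb bin counted from the chromosome's start (grey: no kept bin). Blue is lower and red higher in Tyr-H cells; apart from chromosome 2, long blue stretches are seen on chromosomes 3 and 10 and a red one at the start of chromosome 14.

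For each library, a bin's level was the median over its genes of the log2 deviation from the gene's mean over the 6 libraries, centred on all genes. Of the 233 bins, 96 had all 3 Tyr-H libraries above all 3 Tyr-L libraries, 63 had all 3 below, and 74 overlapped. Over all 252 kept bins no overlap was seen in 70.2%, with Tyr-H above in 38.1% and below in 32.1%, and over the 9548 genes in 72.0%. Overlap was also seen at a high value, in chromosome 12, 40 to 50 Mb, with 9 genes and 0.25, where Tyr-H library 3 (-0.05) lay among the Tyr-L libraries (-0.03, -0.14 and -0.10).

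A library set against the other 2 of its own group gave bin values with a standard deviation of 0.028 to 0.036, and 1 Tyr-H library against 1 Tyr-L library, in 3 pairs with no library in common, one of 0.136 to 0.162. Replicate error of a bin, taken as the standard error of the difference of group means over libraries, had a median of 0.020. It depended on the number of genes. The 17 bins with 5 to 9 genes had a median standard error of 0.047 and values with a standard deviation of 0.25. In the 123 bins with 30 or more genes these were 0.016 and 0.11. The values of the smallest bins were thus both noisier and more spread. At the limit of the rule, the 4 bins with exactly 5 genes had values from -0.15 to 0.46. No bin had 4, and the 3 bins left out off chromosome 2 held 1, 3 and 2 genes, with medians of 0.15, -0.73 and 0.13.

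**Figure D2:**
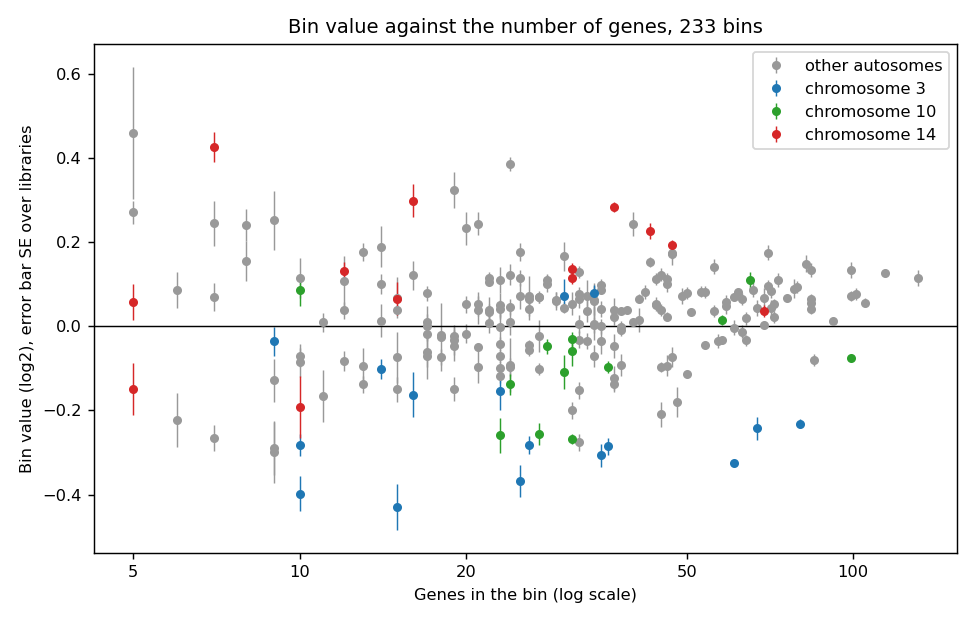
Bin value (log2, with the standard error over 3 libraries a group) against the number of genes in the bin on a log scale, 233 bins. Bins of 30 or more genes stay within 0.3 of 0 except 2 on chromosome 3 at -0.32 and -0.31, while bins of 5 to 9 genes reach 0.46.

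Neighbouring bins were compared over 215 pairs of adjacent kept bins, and the correlation of the left with the right value was 0.39. The same correlation for a library set against its own group was 0.03 to 0.17. These bins share their libraries, so both figures are descriptions. The median step from a bin to the next was 0.09. Over 215 steps the greatest were the rise of 0.55 and the fall of 0.48 on either side of chromosome 5, 90 to 100 Mb, and the fall of 0.43 and rise of 0.42 around chromosome 11, 10 to 20 Mb, a bin of 9 genes.

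A run was first defined as 3 or more adjacent bins of 1 sign with values of at least 0.3 in size. By that rule there was no run off chromosome 2. With 0.2, a threshold chosen after the values were seen, there were 3: chromosome 3 from 30 to 110 Mb (8 bins), chromosome 10 from 20 to 50 Mb (3 bins) and chromosome 14 from 0 to 30 Mb (3 bins). Chromosome 2, given here only for scale, had 18 of 19 bins below 0, with a median of -0.23. Because the runs were chosen by their values, their medians are a summary of what chose them.

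Chromosome 3 held the longest run. Its bins from 0 to 160 Mb read -0.04, -0.43, -0.10, -0.37, -0.40, -0.29, -0.28, -0.28, -0.24, -0.23, -0.32, -0.16, -0.31, 0.08, 0.07 and -0.15. The wider stretch from 10 to 130 Mb was set after the values were seen, so its signs, shares and medians summarize that choice. From 10 to 130 Mb all 12 bins were below 0, and in each of them every Tyr-H library lay below every Tyr-L library, as in 32.1% of all 252 kept bins. The levels of this stretch were 0.138, 0.133 and 0.138 in the Tyr-L and -0.144, -0.128 and -0.143 in the Tyr-H libraries, so groups were 0.27 apart with a spread of 0.003 and 0.009 (SD, n = 3 each). Of its 395 genes, 305 (77.2%) were below the all-gene median change, against 45.6% of 7116 genes on the autosomes other than 2, 3, 10 and 14. The median was -0.28, a fold of 0.822, and the quartiles were -0.50 and -0.02.

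The lower level was spread over many genes of chromosome 3 and over low and high expression. Without the genes whose ratio was 2-fold or more, 354 genes were left with a median of -0.25. Genes of 1 to 5, 5 to 20 and over 20 FPKM had medians of -0.31, -0.33 and -0.24, where the other autosomes had -0.03, 0.01 and 0.09. The 180 genes of this stretch with 0.1 to 1 FPKM, which the bins did not use, had a median of -0.25 against 0.02 elsewhere. Unlike the others, these were centred on the median of all genes of 0.1 to 1 FPKM and were not reduced to 1 per locus. A gene was called when limma gave an adjusted p of at most 0.05 and a log2 fold change of at least 1 in size, on log2(FPKM + 0.1). Of the 395 genes, 34 (8.61%) were called lower and 7 (1.77%) higher, where 8.75% of all 14336 tested genes were called, 5.78% lower and 2.96% higher. On the autosomes other than 2, 3, 10 and 14, 192 of 7116 genes (2.70%) were called lower and 175 (2.46%) higher. The counts come from the contrast that chose the stretch and are given beside these shares only. Over all genes the split of calls moved with scaling, from 425 higher and 829 lower as deposited to 544 and 580 after median ratio scaling and 610 and 496 after quantile normalization, with the median log2 fold change going from -0.154 to -0.008 and -0.014. Bin values are centred and carry no such shift.

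**Figure D3:**
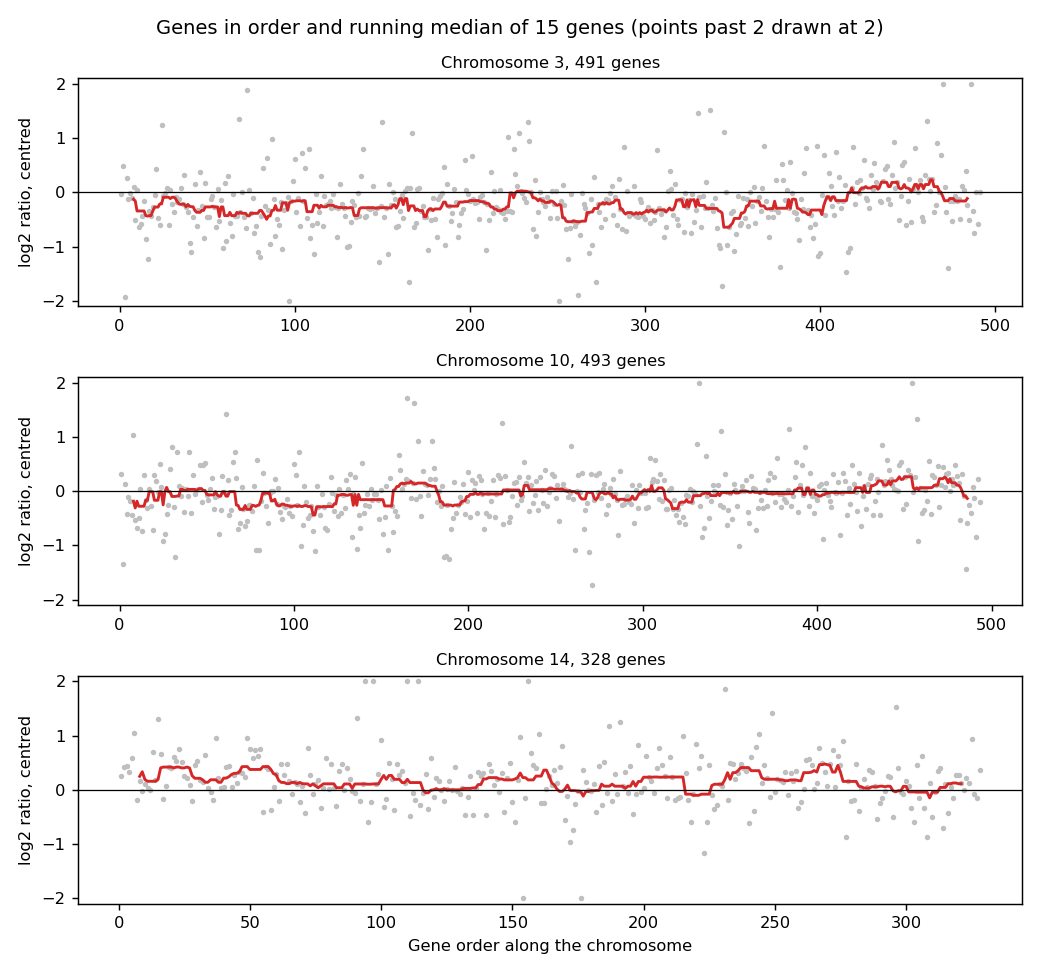
Genes of chromosomes 3, 10 and 14 in order along the chromosome, each point a gene's log2 ratio less the all-gene median, and the running median of 15 genes as a line. On chromosome 3 the line stays below 0 for most of the 491 genes, rises above 0 after 130 Mb and is below 0 again over the last genes; on chromosome 14 it lies mostly above 0.

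At the distal end of the chromosome 3 stretch, the bin of 120 to 130 Mb (35 genes) had -0.31 and the next (34 genes) 0.08, a step of 0.39. From 130 to 160 Mb, 87 genes had a median of 0.01, with levels of -0.01, -0.02 and 0.02 in the Tyr-L and -0.01, 0.01 and -0.04 in the Tyr-H libraries, which overlapped. The proximal end lay between the bins of 0 to 10 Mb (9 genes, -0.04) and 10 to 20 Mb (15 genes, -0.43), a step of 0.39.

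The 5 lowest kept bins off chromosome 2 all lay in this stretch. Their counts of called genes stand beside 5.78% called lower and 2.96% higher over all tested genes, and 2.70% and 2.46% over the binned genes of the autosomes other than 2, 3, 10 and 14. In chromosome 3, 10 to 20 Mb, 12 of 15 genes were below 0. The bin's levels were 0.30, 0.14 and 0.14 in Tyr-L and -0.17, -0.19 and -0.21 in Tyr-H libraries, with a difference of 0.39 (SE 0.055) that was widest in Tyr-L library 1. The gene 1810022K09Rik (chromosome 3, 14606284 to 14611285) had 67.3, 61.1 and 59.0 FPKM in Tyr-L and 23.2, 24.1 and 25.5 FPKM in Tyr-H libraries. Its Tyr-H values were all under 0.5 of any Tyr-L value, and it was called. The bin also held a gene called higher, Cp, the copper-carrying plasma protein ceruloplasmin, with 19.02 to 24.5 FPKM in Tyr-L and 43.1 to 49.8 FPKM in Tyr-H libraries, named after its values were seen. The long noncoding RNA 4632415L05Rik had 9.48, 8.87 and 9.67 FPKM against 5.16, 6.20 and 5.36 FPKM. Fabp5, a fatty acid binding protein and the most abundant gene of the bin, did not share the direction: its log2 ratio less the all-gene median was 0.04, with 417 to 447 FPKM in Tyr-L and 396 to 413 FPKM in Tyr-H libraries.

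In chromosome 3, 40 to 50 Mb, 7 of 10 genes were below 0 and the value was -0.40. Intu (chromosome 3, 40531286 to 40704774), an effector of planar polarity needed for cilia, had 16.9, 15.9 and 16.5 FPKM in Tyr-L and 8.71, 8.28 and 8.53 FPKM in Tyr-H libraries. Mfsd8, a lysosomal membrane protein, had 6.22, 5.79 and 6.39 FPKM against 3.67, 4.29 and 4.33 FPKM. In both genes, picked for their large ratios, the groups were clear of each other, as in 72.0% of the 9548 genes. Pgrmc2, a heme-binding membrane protein and the most abundant of the bin, was not called, with 34.99, 35.4 and 35.6 FPKM against 24.4, 25.4 and 25.03 FPKM. None of the 10 genes was called lower and 2 were called higher: Slc7a11, the cystine transporter, and Larp1b, at 1.89 and 1.35 above the all-gene median, named after their values were seen. These 2 turn the mean over the bin's genes to 0.0049, so its low value belongs to the median.

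In chromosome 3, 30 to 40 Mb, 19 of 25 genes were below 0, 4 were called lower and none higher (5.78% and 2.96% of all tested genes), and the value was -0.37, or -0.18 after correction for GC content and length. Phc3 (chromosome 3, 30899371 to 30969415), a Polycomb protein, had 11.3, 10.3 and 11.3 FPKM in Tyr-L and 4.57, 4.59 and 4.61 FPKM in Tyr-H libraries. The Tyr-H libraries were close to each other and well under every Tyr-L library. The gene 4932438A13Rik had 8.86, 7.45 and 8.57 FPKM against 3.68, 3.83 and 3.55 FPKM. Anxa5, a phospholipid binding protein and the most abundant gene here, was level with all genes (0.07), at 301 to 316 FPKM in Tyr-L and 295 to 297 FPKM in Tyr-H libraries.

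Chromosome 3, 100 to 110 Mb was the most precisely measured of the 5, with 61 genes and a value of -0.32. Its levels were 0.16, 0.16 and 0.17 in Tyr-L and -0.15, -0.14 and -0.15 in Tyr-H libraries, with a standard error of 0.0055. Here 50 of 61 genes (82.0%) were below 0, 5 were called lower and 2 higher, where 5.78% and 2.96% of all tested genes were. Prpf38b, a splicing factor, had 31.8, 29.0 and 31.3 FPKM in Tyr-L and 14.5, 13.6 and 11.5 FPKM in Tyr-H libraries. Psrc1, a spindle protein, had 85.2, 79.9 and 81.5 FPKM against 40.2, 35.5 and 35.1 FPKM. Both were called and their groups lay far apart. The GTPase gene Nras lay in the same bin and had 43.8, 43.5 and 47.0 FPKM against 29.0, 25.8 and 27.6 FPKM, or -0.57, without being called.

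In chromosome 3, 120 to 130 Mb, 26 of 35 genes were below 0, 4 were called lower and none higher (5.78% and 2.96% of all tested genes), and the value was -0.31. Arhgap29 (chromosome 3, 121952541 to 122016753), whose promoter is given above, had 14.6, 12.7 and 13.9 FPKM in Tyr-L and 4.97, 4.50 and 4.77 FPKM in Tyr-H libraries, the largest change of the bin. Elovl6, which elongates saturated fatty acids, had 26.7, 24.7 and 25.6 FPKM against 11.0, 12.3 and 8.74 FPKM. Both were called. Cnn3, an actin-binding calponin, was the most abundant gene, at 206 to 216 FPKM in Tyr-L and 134 to 146 FPKM in Tyr-H libraries.

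**Figure D4:**
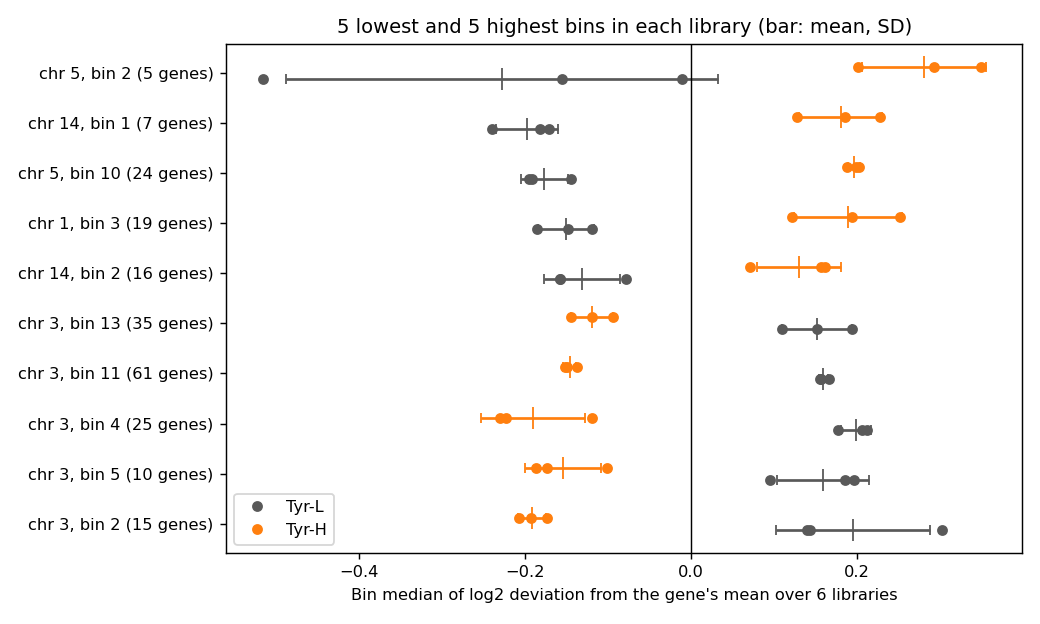
Levels of the 5 lowest and 5 highest bins in each of the 6 libraries, as the median log2 deviation of the bin's genes from their mean over libraries (dots: libraries, tick and bar: mean and SD of 3). The Tyr-L and Tyr-H dots lie on opposite sides of 0 in all 10 bins, and the bin of 5 genes on chromosome 5 has the widest Tyr-L spread, from -0.52 to -0.01.

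The chromosome 14 run pointed the other way. Its bins from 0 to 130 Mb read 0.43, 0.30, 0.28, 0.11, 0.13, 0.04, 0.19, 0.23, 0.06, -0.15, 0.07, -0.19 and 0.13. The first 8, a limit set after the values were seen, were all above 0. All 8 were free of overlap between groups, with Tyr-H above as in 38.1% of all 252 kept bins. From 0 to 30 Mb, 60 genes had a median of 0.30, a fold of 1.23, and 9 of them lay below 0. The levels were -0.148, -0.154 and -0.129 in the Tyr-L and 0.143, 0.134 and 0.140 in the Tyr-H libraries. By limma 1 of the 60 genes (1.67%) was called higher and none lower, where 2.46% of the genes of the autosomes other than 2, 3, 10 and 14 were called higher and 2.70% lower (2.96% and 5.78% of all tested genes, from 0.1 FPKM). Further along, high values were seen at chromosome 14, 60 to 70 Mb (47 genes, 0.19) and 70 to 80 Mb (43 genes, 0.23), and the latter holds the tumor suppressor Rb1 at 4.86, 4.41 and 4.26 FPKM in Tyr-L and 5.59, 5.63 and 5.64 FPKM in Tyr-H libraries. The deposited locus of Rb1 spans 2 other genes. The same holds, with 1 to 7 other genes, for 1810022K09Rik, Cp, Mfsd8, Slc7a11, Larp1b, Elovl6, Cnn3, Ngly1, Ube2e2, Rpl15, Magi2, Gm28439, Cxcl10, Pmel, Oca2, Cdk4 and Cdk6, whose binned position is that of the whole locus.

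The highest bin of chromosome 14, 0 to 10 Mb, had 7 genes. Pdhb had 69.1, 70.7 and 73.1 FPKM in Tyr-L and 99.5, 94.7 and 96.5 FPKM in Tyr-H libraries. Rpp14, a protein of ribonuclease P, had 15.4 to 16.8 FPKM against 21.2, 17.3 and 20.8 FPKM. In both genes, picked for their large ratios, all Tyr-H libraries lay above all Tyr-L libraries, by a small margin in Rpp14. No overlap, in either direction, was seen in 72.0% of the 9548 genes. Kctd6, an adaptor of cullin-3 ubiquitin ligase, was highest above the all-gene median at 1.05, and Abhd6 and Pxk were at 0.43 and 0.33. Only the processed pseudogene Gm9800 was below 0 (-0.19), and it was the most abundant entry, at 186 to 200.1 FPKM in Tyr-L and 145 to 161 FPKM in Tyr-H libraries.

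In chromosome 14, 10 to 20 Mb, 13 of 16 genes were above 0 and the value was 0.30. Ngly1, which strips N-glycans from misfolded proteins, had 6.50, 6.40 and 6.64 FPKM in Tyr-L and 8.95, 9.63 and 9.62 FPKM in Tyr-H libraries. Ube2e2, a ubiquitin-conjugating enzyme, had 11.3, 11.1 and 13.8 FPKM against 16.1, 19.3 and 14.97 FPKM. The ribosomal protein gene Rpl15, the most abundant of the bin, had 397 to 398 FPKM against 468 to 501 FPKM. All 3 genes were free of overlap, as were 72.0% of the 9548 genes in either direction, and none of them was called. Ngly1 and Ube2e2 were picked for their large ratios. The called gene of the bin was the kinase gene Nek10, named after its values were seen, with 1.85 to 2.19 FPKM in Tyr-L and 4.40 to 5.36 FPKM in Tyr-H libraries. The value fell to 0.15 over the 11 genes that had their locus to themselves.

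On chromosome 10 the bins from 20 to 50 Mb had -0.26, -0.26 and -0.27, and their 81 genes a median of -0.26 with 70.4% below 0. The levels were 0.13, 0.08 and 0.12 in the Tyr-L and -0.10, -0.11 and -0.08 in the Tyr-H libraries. By level, the 21 genes over 20 FPKM had a median of -0.05, and the 24 and 36 genes of 1 to 5 and 5 to 20 FPKM had -0.27 and -0.28. Of the 81 genes 5 (6.17%) were called lower and 1 (1.23%) higher, where 2.70% and 2.46% of the genes of the autosomes other than 2, 3, 10 and 14, binned from the same 1 FPKM, and 5.78% and 2.96% of all tested genes, from 0.1 FPKM, were called lower and higher. The 357 genes from 50 to 140 Mb had a median of -0.02, with 53.5% below 0.

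**Figure D5:**
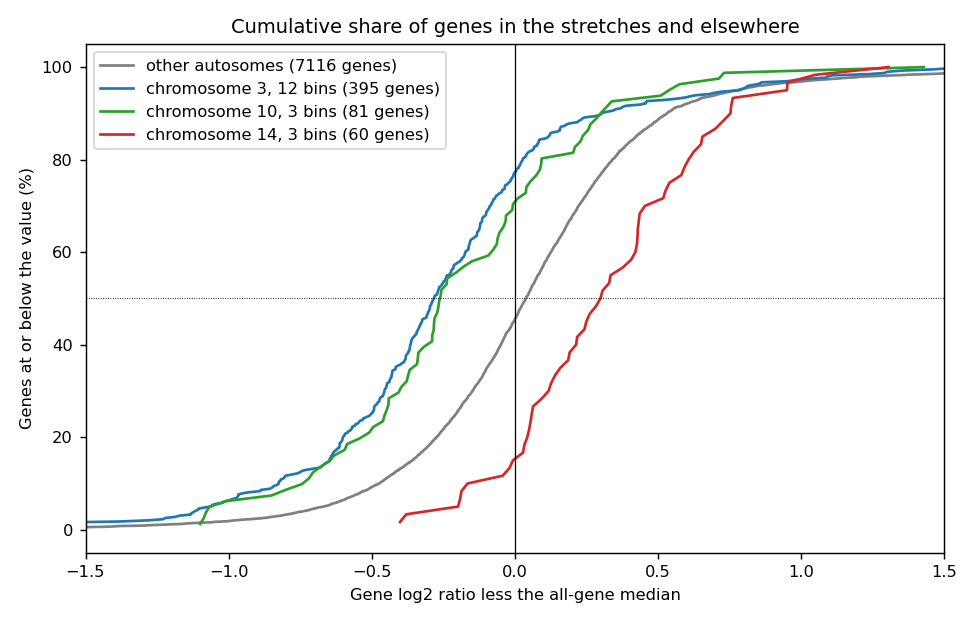
Cumulative share of genes against the log2 ratio less the all-gene median, for chromosome 3 from 10 to 130 Mb (395 genes), chromosome 10 from 20 to 50 Mb (81), chromosome 14 from 0 to 30 Mb (60) and the autosomes other than 2, 3, 10 and 14 (7116). The medians are -0.28, -0.26, 0.30 and 0.04, and the curves of chromosomes 3 and 10 lie close together, to the left of the other autosomes, with that of chromosome 14 to the right.

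3 of the 5 highest bins were in no run. In chromosome 5, 90 to 100 Mb (24 genes, 0.38), 18 genes were above 0 and 5 were called higher, where 2.96% of all tested genes were. Its levels were -0.19, -0.14 and -0.20 in Tyr-L and 0.20, 0.20 and 0.19 in Tyr-H libraries. The chemokine cluster is here. Cxcl1 (chromosome 5, 90891241 to 90893115) had 0.443, 0.333 and 0.231 FPKM in Tyr-L and 42.9, 56.3 and 64.1 FPKM in Tyr-H libraries. Cxcl2 (chromosome 5, 90903871 to 90905938) had no entry for the Tyr-L libraries, against 14.9, 17.8 and 21.2 FPKM in Tyr-H libraries. Cxcl10, an interferon-induced chemokine that shares its locus with 3 other genes, had 14.2, 15.1 and 14.9 FPKM against 44.4, 52.0 and 57.8 FPKM. Taking the 3 chemokines out left 0.35, and taking out all genes of 2-fold or more left 0.20 over 19 genes, while the mean over genes was 1.00. The most abundant entry was Gm5559, a processed pseudogene, at 440 to 448 FPKM in Tyr-L and 557 to 576 FPKM in Tyr-H libraries.

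The highest value of all, 0.46 in chromosome 5, 10 to 20 Mb, rested on 5 genes. The semaphorins Sema3c and Sema3e, secreted guidance proteins, had 1.68, 1.66 and 2.31 FPKM and 0.741, 0.824 and 0.933 FPKM in the Tyr-L libraries. In the Tyr-H libraries they had 3.58, 3.95 and 3.77 FPKM and 1.73, 1.68 and 1.45 FPKM. The scaffold gene Magi2 and the pseudogene Gm10481, whose ratio was the median itself, had 1.11 to 1.66 and 1.13 to 1.68 FPKM in Tyr-L and 1.42 to 1.89 and 1.79 to 1.91 FPKM in Tyr-H libraries, so Magi2 overlapped between groups. The only gene over 5 FPKM, the pseudogene Gm8991, went the other way, with 15.1, 15.2 and 15.2 FPKM in Tyr-L and 8.54, 8.81 and 8.93 FPKM in Tyr-H libraries. None of the 5 was called. The bin's Tyr-L levels of -0.16, -0.52 and -0.01 were the widest among the 10 bins named, and the value went from 0.32 to 0.58 as single libraries were left out.

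In chromosome 1, 20 to 30 Mb (19 genes, 0.32), 6 members were unprocessed pseudogenes known as nuclear copies of mitochondrial DNA: Gm28437, Gm28438, Gm28439, Gm10925, Gm28661 and Gm29216. Gm28661 (chromosome 1, 24614885 to 24615565) had 5361, 4821 and 5165 FPKM in Tyr-L and 7900, 8297 and 9069 FPKM in Tyr-H libraries. Gm29216 had 1871, 1769 and 1756 FPKM against 3742, 3943 and 4846 FPKM. Whether their reads came from these copies or from the mitochondrial chromosome was not tested, and their values are uncertain. All 6 were above 0, with a median of 0.66, and so were the 11 genes of the mitochondrial chromosome, with a median of 0.61 and the lowest at 0.30. Over the 13 protein-coding genes the bin's value was 0.09.

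Elsewhere most bins stayed closer to 0, though single bins went as low as -0.30 and as high as 0.27 (chromosome 15, 40 to 50 Mb, 5 genes). On chromosomes 8 and 17 they lay between -0.07 and 0.12 and between -0.0018 and 0.15, the narrowest spreads (SD 0.059 and 0.056 over 13 and 9 bins). Chromosome 11 had 11 of 13 bins above 0, with 0.17 at 120 to 130 Mb (47 genes), and chromosome 6 had 13 of 15, with 0.23 at 10 to 20 Mb (20 genes). In that bin Met, the receptor of hepatocyte growth factor, moved against its neighbours, with 133, 123 and 127 FPKM in Tyr-L and 64.5, 60.2 and 60.9 FPKM in Tyr-H libraries. Chromosome 12 had 8 of 12 bins below 0, all 8 within 0.14 of 0. Single low bins were chromosome 13, 100 to 110 Mb (32 genes, -0.28), chromosome 1, 100 to 110 Mb (9 genes, -0.30), chromosome 11, 10 to 20 Mb (9 genes, -0.29) and chromosome 7, 50 to 60 Mb (7 genes, -0.27), and the first of these had the most genes. Chromosome 1 changed direction along its length, with -0.21 at 50 to 60 Mb (45 genes), -0.10 at 60 to 70 Mb (23 genes) and 0.24 at 70 to 80 Mb (40 genes).

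Several genes of the melanin pathway lay far from the value of their bin. Tyr itself had 10.7, 9.52 and 9.80 FPKM in Tyr-L and 23.8, 20.6 and 19.7 FPKM in Tyr-H libraries in a bin of 0.02. Mitf, the master regulator of melanocytes, had 98.2, 86.7 and 86.7 FPKM against 26.8, 24.7 and 23.7 FPKM in a bin of 0.10. Mc1r, the melanocortin receptor, had 73.3, 73.5 and 75.3 FPKM against 27.2, 26.8 and 24.3 FPKM in a bin of 0.10, with 103 other genes on its deposited locus, which is binned by its start. The start of Mc1r itself lay in the next bin of chromosome 8, 120 to 130 Mb (23 genes), whose value was -0.07. Tyr, Mitf and Mc1r were all called, in bins whose median over genes stood near the all-gene median. Oca2, a melanosomal transport protein, was also called and went with its bin, at 1.68, 1.44 and 1.55 FPKM against 0.332, 0.287 and 0.271 FPKM in the low bin of chromosome 7, 50 to 60 Mb (-0.27), where its mean was under 1 FPKM and it was not among the genes binned. Kit, the receptor of stem cell factor, was called at -0.97 in a bin of -0.06. Without being called, Dct lay at -0.50 in a bin of 10 genes at -0.19, Pmel at -0.60 in a bin of 0.11 and Sox10 at -0.44 in a bin of 0.13. Tyrp1, Mlana and Slc45a2 lay within 0.12 of the all-gene median. Among growth genes, Cdkn1a (0.84 in a bin of 0.13) and Cdk6 (0.93 in a bin of 0.07) went beyond bins of the same sign, Myc (-0.17 in a bin of 0.19) and Cdk4 (-0.33 in a bin of 0.11) went against theirs, and Cdkn2a, Cdkn2b and Egfr were not listed.

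Zinc finger genes named Zfp and the Hoxa genes were, among families formed by the stem of the gene symbol with 3 or more members in a bin, those whose removal moved a bin by over 0.1. Without 18 of them chromosome 13, 60 to 70 Mb went from -0.14 to 0.01, and without 26 of them chromosome 7, 20 to 30 Mb went from 0.01 to 0.13. Over the autosomes 190 of 260 Zfp genes (73.1%) were below 0, with a median of -0.23, against 49.2% of 8941 other autosomal genes. By limma 16 of the 260 were called lower and none higher, where 284 of the 8941 other genes were called lower and 210 higher. Of all tested genes, from 0.1 FPKM, 5.78% were called lower and 2.96% higher. On the autosomes other than 2, 3, 10 and 14, 71.5% of 235 Zfp genes were below 0, and 12 were called lower and none higher. There 2.70% of all binned genes were called lower and 2.46% higher. Zfp paralogs are alike in sequence and reads may be split between them, and this group was singled out after its values were seen. The 4 Hoxa genes of chromosome 6, 50 to 60 Mb were all below 0, and the bin went from 0.0059 to 0.15 without them. Histone genes of chromosome 13, 20 to 30 Mb (8 of 34 genes, median 0.13) took the bin from 0.06 to -0.02 when left out.

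The 4 H2- genes of chromosome 17, 30 to 40 Mb, which encode class I antigen-presenting molecules, ran from 0.13 to 1.56, yet the bin of 99 genes kept 0.13 without them. The 3 Gbp genes (median 0.32) and 3 of 4 Ifit genes (median of 4, 0.75) were also above 0, in bins of 0.07 and 0.04, and both Slfn genes (median -0.54) were below 0, in a bin of 0.0031. Of the autosomal genes other than Zfp, 49.2% were below 0. The 4 Serpinb genes of chromosome 13, 30 to 40 Mb were all above 0 (median 0.76). Gsta genes of chromosome 9, 70 to 80 Mb, which encode glutathione transferases, were all 3 below 0 (median -1.27), and the 5 Gstm genes within the chromosome 3 stretch had a median of -0.08, above the -0.32 of their bin. Other glutathione transferase genes were above 0, with Gstp1 and Gstp2 (median 0.70), Gsto1 (1.19) and Gstz1 (0.39), while Gsta3 (-1.39) and Gstk1 (-0.01) were below 0.

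Bin values were set beside base composition, gene number, level and length, over bins that share the 6 libraries. Over the 233 bins the correlation with the median GC content of the longest transcript was 0.25 (Spearman 0.27), and over 191 bins off chromosomes 2, 3, 10 and 14 it was 0.21 (Spearman 0.26). For the number of genes it was 0.11 (Spearman 0.13), for the median FPKM 0.09 (Spearman 0.17) and for the median length of the deposited locus -0.06 (Spearman -0.20). Over the 173 bins of 20 or more genes these were 0.14 (0.16), 0.23 (0.21) and -0.21 (-0.28), and 0.28 (0.29) for GC content. Transcripts of the chromosome 3 stretch had a median GC content of 47.3%, those of chromosome 10 from 20 to 50 Mb 45.8%, those of chromosome 14 from 0 to 30 Mb 47.1%, and those of the other autosomes 49.7%. The part of GC content in the bin values was not tested beyond the correction that follows. After genes were corrected for GC content and length, the medians were -0.23, -0.18 and 0.39 for the chromosome 3, 10 and 14 stretches. Promoter CG counts were known for 75.6% of genes, under the 80% needed, and that check was void.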

How the data were processed

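RNA of 3 Tyr-H and 3 Tyr-L libraries had been sequenced, and the authors deposited FPKM for each library. Labels name Trimmomatic, HISAT2 and GRCm38.p6; the quantifier is not given in the sources used here, nor is depth, which therefore limits precision to an unknown degree. Genes not listed in a library were taken as 0. Groups came from sample titles. Bins followed the rule in the text, with 0.1 FPKM added; deposited starts count from 0. Annotation, gene type and GC came from GENCODE M21 (GRCm38, 20709 of 20788 identifiers), promoters from RefSeq. Genes averaging 0.1 FPKM or more were tested with limma 3.58.1 in R 4.3.3 (trend, Benjamini-Hochberg). Named genes were, for the 5 highest and 5 lowest bins, the 2 of at least 5 FPKM with the largest ratio in the bin's direction and the most abundant gene, then landmark genes and clusters listed by symbol. Members and lists were chosen with earlier results of these data known. Scripts used Python 3.11.15, numpy 2.4.6 and pandas 2.3.3 and were tested on simulated data. Some items are not reported here. Alternatives changed the pseudocount, filters, bins, centre, statistic, normalization and libraries.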

Additional observations from a re-analysis of the deposited data

How the results depend on the processing

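The number of bins at 0.2 or more in size, 33 of 233, was within 1.5 times of that under 25 of 27 alternatives, and was 63 of 408 with bins of 5 Mb and 14 of 122 with bins of 20 Mb. Leaving out 1 library gave 33 to 38. No run off chromosome 2 at 0.3 was found as first defined, and 1 was found with bins of 5 Mb, with the centre on autosomes other than 2, with protein-coding genes only (all on chromosome 3), with GC and length correction (chromosome 14) and without Tyr-H replicate 2, for a range of 0 to 1 over left-out libraries. The 3 runs at 0.2 became 1 when genes averaging 0.1 FPKM or more were used, with 5 FPKM or more, with every gene and with bins of 20 Mb, and 2 to 3 as single libraries were left out. A run on chromosome 3 was present under 27 of 27 alternatives, on chromosome 14 under 19 and on chromosome 10 under 17, but its extent on chromosome 3 changed. From 8 bins (30 to 110 Mb) it went to 3 bins (80 to 110 Mb) with genes alone on their locus and with the mean over genes, to 4 (70 to 110 Mb) with GC and length correction and to 5 (60 to 110 Mb) with 0.1 FPKM, with 5 FPKM and without genes of 2-fold change, and it was split into 25 to 55 and 95 to 135 Mb with bins shifted by 5 Mb, and into 3 runs with bins of 5 Mb. The run was longer, at 10 bins (30 to 130 Mb), with protein-coding genes only and without Tyr-L replicate 2. With bins of 20 Mb it reached from 0 to 120 Mb. The cause of these changes was not tested. The mean over genes turned chromosome 3, 40 to 50 Mb from -0.40 to 0.0049, with 2 of its 10 genes called higher. GC and length correction took chromosome 3, 10 to 20 Mb from -0.43 to -0.29 and chromosome 3, 30 to 40 Mb from -0.37 to -0.18. Calls by limma went from 1254 to 388 with 1 FPKM added and to 640 of 11026 among genes averaging 1 FPKM or more, and to between 1149 and 1279 without 1 library.

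Libraries of the 2 groups share the numbers 1 to 3, but the correlations of their deviations were 0.022, 0.013 and -0.083, so the numbers were not taken as pairs. As an alternative, each gene's ratio was the median of 3 log2 differences between libraries of equal number. There 36 bins reached 0.2, 3 runs were found at 0.2 and none (0) at 0.3. With a replicate block in limma, 1258 genes were called. Corrections for GC and length, the restriction to protein-coding genes, the removal of Zfp genes and the threshold of 0.2 were chosen after seeing the data. So were the limits of the stretches that are not runs. Of the 10 named bins, 1 changed sign: chromosome 3, 40 to 50 Mb, at 0.0049 with the mean over genes. Under the other alternatives that could give a value, all 10 kept their sign. The bins of fewer than 10 genes and those with shared loci are the least certain, and depth is unknown.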
